A study of Mus musculus with 12 samples.

Results

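Lysosomal genes were followed in cultured microglia of the mouse, which are the brain's own macrophages, after ischemia and reperfusion. The set held 43 genes chosen by function: 13 proteases, 14 other hydrolases and cofactors, 6 membrane proteins, 9 proton pump genes and the transcription factor gene Tfeb. Each gene was read from the probe sets that carried its symbol alone, and the brightest of these over the 12 arrays stood for the gene. Of the 43 genes, 42 had such a probe set, among 19938 genes on the array that did. Atp6v0c, a pump subunit, did not match and is named only. The 42 measured genes all passed the filter on dim probe sets (a mean log2 signal of 5.36), which left 15273 genes tested.

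RNA came from primary microglia of wild-type mice and of mice labelled as TLR4 knockout. Tlr4 encodes the cell-surface receptor for bacterial lipopolysaccharide. Cells of either genotype spent 24 h in ischemic conditions, which the labels describe as hypoxic or hypoglycemic, or in normoxic, normoglycemic control conditions. All cells, the controls included, then had 24 h of reperfusion under normal conditions. Each of the 4 groups, ischemia and control in either genotype, held 3 arrays, and the second genotype is called knockout-labelled here. The labels give no strain, age or sex and do not describe how Tlr4 was altered. Nor do they say whether arrays of 1 group stem from different animals or cultures, so the p-values measure the spread between arrays, which may be technical. The source field of the wild-type ischemia arrays reads normoxia, whereas their titles and the series key read hypoxia, and here the titles decide. Myocytes are named in the extraction protocol, where every other label names microglia.

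Array medians lay between 6.30 and 6.40 log2 signal. The third knockout-labelled control array stood apart, with a median correlation with the other arrays of 0.976, against 0.982 or more for the rest. The microglial markers Csf1r, Itgam and C1qa had mean signals of 12.3, 12.0 and 11.4, while P2ry12 at 5.75 and Tmem119 at 6.51 were low. Trem2, Fcrls, Cx3cr1, Aif1 and Sall1 lay between 7.4 and 10.9. Of the monocyte and border macrophage markers, Mrc1 at 11.2 and Ms4a7 at 9.81 were bright. Pf4 was at 7.37, and Cd163, Lyve1, Ccr2 and F13a1 lay between 4.83 and 5.77. Tlr4 signal was 8.74 ± 0.18 in wild-type and 8.71 ± 0.22 in knockout-labelled arrays (SD, n = 6 each), a difference of -0.02 with a two-sided exact permutation p of 0.851, so this probe set does not bear out the label. Whether it lies in the altered part of the gene is not given in the labels. The permutation took the 12 arrays as exchangeable, although same-numbered control and ischemia arrays of a genotype deviated together. In bulk RNA, a change in the make-up of the cultures and a change of RNA per cell cannot be told apart.

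The lysosome is the acidic compartment in which a macrophage digests engulfed debris, and in microglia it handles myelin, dead cells and synaptic material. Its proteases and other hydrolases work at a low pH that a rotary proton pump, the V-ATPase, maintains by moving protons through a membrane sector (V0) as a cytosolic sector (V1) splits ATP. Many of these genes share a promoter element, the CLEAR motif, bound by TFEB and its relatives, which enter the nucleus when nutrients are short or lysosomes are damaged. TFEB activity is largely set by phosphorylation and location rather than by its own transcript.

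The promoters show how far the set shares that element, and the stretches that carry it are printed for 6 members with a role in each class. RefSeq promoter windows, from 250 bases before to 50 after a gene's start in mouse build GRCm38.p6, matched 35 of the 43 genes. Those without a match were Asah1, Atp6v0d2, Atp6v1b2, Atp6v1c1, Atp6v1h, Ctsb, Ctsh and Npc1. The motif searched was TCACGTG on either strand (CACGTGA in the printed strand when reversed), and TCACGTGA counts as 2 overlapping matches. Capitals mark the matches, and each stretch lies upstream of the start, 5′ to 3′ on the gene's own strand. Lamp1, a heavily glycosylated membrane protein, has its stretch at chr8:13159087-13159160 on the plus strand. That of Mcoln1, a lysosomal calcium channel, is at chr8:3500435-3500492 on the plus strand. That of Ctsa, a carboxypeptidase that protects Neu1 and Glb1, is at chr2:164833748-164833772 on the plus strand. The Gla stretch, of the enzyme that clears globotriaosylceramide, is at chrX:134601181-134601245 on the minus strand. The Arsa stretch, of the sulfatide sulfatase, is at chr15:89477425-89477453 on the minus strand. The Atp6v1a stretch, of the ATP-splitting V1 subunit, is at chr16:44139372-44139403 on the minus strand.
Lamp1: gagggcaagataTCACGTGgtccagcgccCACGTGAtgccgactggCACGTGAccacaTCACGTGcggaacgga
Mcoln1: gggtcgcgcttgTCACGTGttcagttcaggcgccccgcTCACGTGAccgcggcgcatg
Ctsa: atgagcaaactgTCACGTGAtgcag
Gla: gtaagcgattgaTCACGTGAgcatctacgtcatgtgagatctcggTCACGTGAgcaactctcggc
Arsa: ttcaactcagtgTCACGTGttgtctgctc
Atp6v1a: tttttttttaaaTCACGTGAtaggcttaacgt

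The motif was present in at least 1 window of 11 of the 35 member genes matched, or 31.4%. It was present in 4.29% of the 27025 genes with a window, in 6.15% of the tested genes with a window and in 10.6% of the brightest 10% of these. The other 5 members that held it were Ctsd, Lgmn, Glb1, Gaa and Atp6v0d1. A match describes letters in a window and is not a measured binding site. The 11 members with the motif had a median log2 change after ischemia of 0.06 in wild-type cells and -0.00 in knockout-labelled cells. The 23 measured members whose window lacked it had medians of 0.09 and 0.05.

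Lysosomal genes were bright on all arrays and varied little. Of the 42, 35 had a mean signal above the 90th percentile of all probe sets and 34 lay in the brightest 10% of the genes tested, but a signal depends on the probe as well as on the RNA, so no order among genes is drawn. The SD between arrays of a group, pooled over the 4 groups, had a median of 0.138 log2 over the members, 0.155 over all genes tested and 0.166 over the brightest 10%. Over all 12 arrays, the median member spanned 0.49 log2 and the median tested gene 0.59. Ctsa had the narrowest span, from 12.73 to 12.91. Arsb had the widest, from 8.49 to 10.46, with a pooled SD of 0.45. The array that stood apart, the third knockout-labelled control, held the highest value of 13 members and the lowest of 6.

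**Figure D1:**
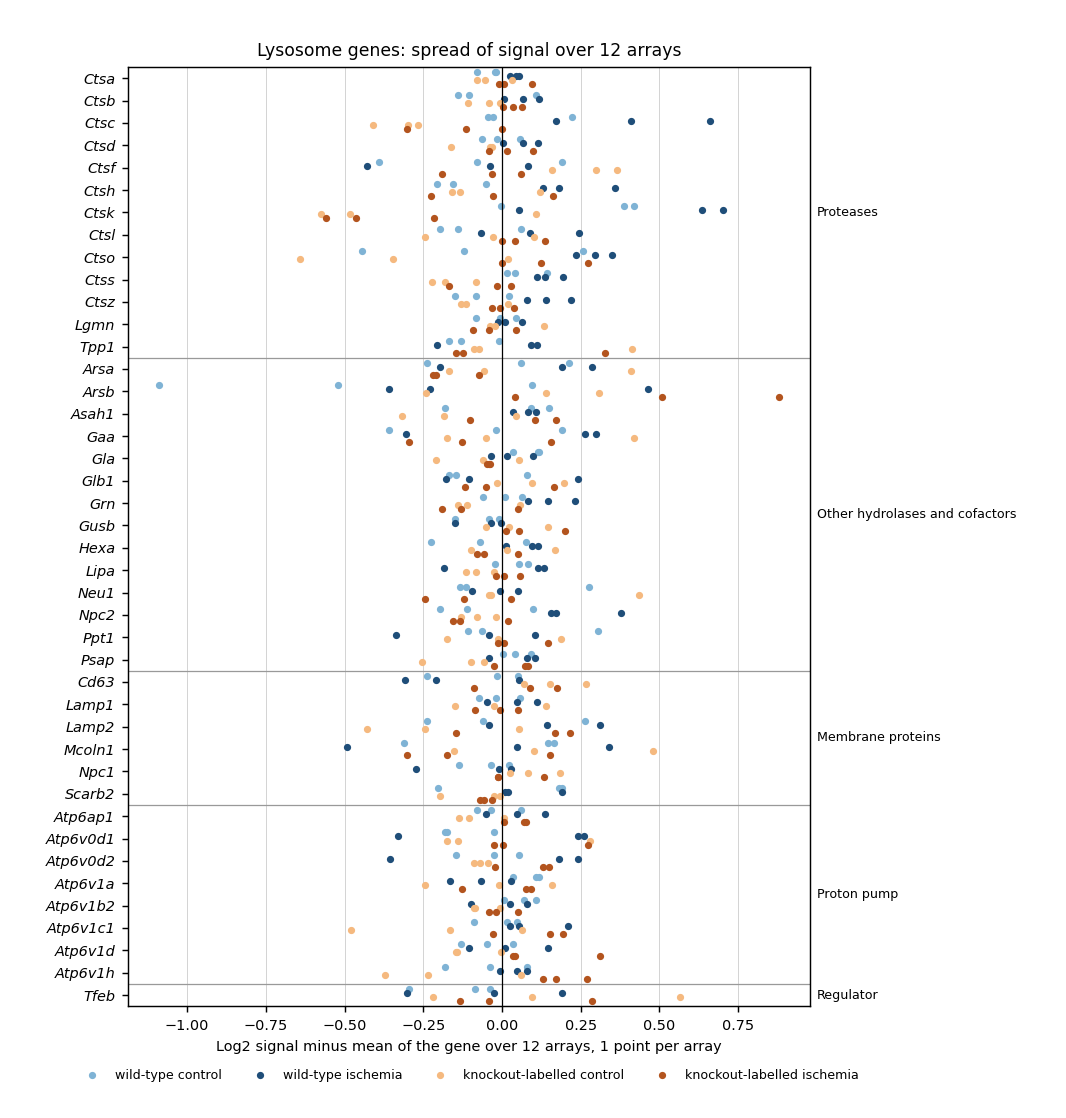
Log2 signal of each lysosomal gene on each of the 12 arrays, as the difference from that gene's own mean, by role and in alphabetical order. Arsb spans from 8.49 to 10.46 in signal, and most wild-type points of Ctsk and Ctsc lie above the knockout-labelled points.

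After ischemia in wild-type cells, the lysosomal transcripts had fitted log2 changes from -0.15 to 0.46. Their median log2 change was 0.07, and 32 of 42 were above 0, against a median of 0.01 and 52.4% above 0 over all genes tested. The brightest 10% of genes had a median of 0.07, with 72.1% above 0. When the arrays were quantile normalized again, 21 of the 42 were above 0 (median 0.0011), and with each array centred on its median 38 were. None of the 42 passed an adjusted p of 0.05 in limma, where 0.0131% of all genes did (2 genes). At an unadjusted p of 0.05, 5 members passed (Ctsc, Ctsh, Ctso, Ctsz and Npc2, all higher), with a background of 14.7% of genes. The smallest adjusted p of a member was 0.273. Ctsa, Ctsh, Ctsz, Grn and Npc2 were higher on each ischemia array than on any control array, where 9.38% of all genes were, and Atp6v1a was lower on each, where 12.3% were.

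The intervals rest on the spread between these arrays, which may be technical, and on the signal as deposited. They do not bound a change between animals or cultures, or one that depends on the scaling. In the limma fit, the 95% interval lay inside a 1.5-fold change in either direction for 36 of the 42 members in wild-type cells and for 34 in knockout-labelled cells. Inside a 2-fold change it lay for 41 members in either genotype. The gene outside was Arsb, with upper bounds of 1.12 and 1.07 log2.

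Arrays with the same number deviated together within a genotype, so the ischemia comparison was also made within same-numbered pairs. In that fit, with the number as a block, 1 of the 42 members was called in wild-type cells (Arsb), with a background of 3.73% of genes, and 6 had an unadjusted p under 0.05, with a background of 24.1%. In knockout-labelled cells 0 of 42 were called by limma (background 0.648%), and 10 had an unadjusted p under 0.05 (background 19.2%). For the difference between genotypes 0 of 42 were called (background 0.308%), and 2 had an unadjusted p under 0.05 (background 8.45%). With the block, intervals lay inside a 1.5-fold change for 39 members in either genotype.

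Arsb, which removes sulfate from dermatan and chondroitin sulfate, carried that call, made with Benjamini-Hochberg adjustment over all genes tested. Its log2 signal was 9.06, 9.68 and 8.49 on wild-type control arrays 1, 2 and 3, and 9.35, 10.05 and 9.22 on the ischemia arrays of the same numbers. The groups overlap, since control array 2 lies above ischemia arrays 1 and 3, but each ischemia array was above its control, by 0.29, 0.37 and 0.73. The change was 0.46 ± 0.11 (SE, 1.38-fold) with the block, at a limma adjusted p of 0.0328. Without the block the SE was 0.30 and the limma adjusted p 0.469. The call was lost when any wild-type pair, or the second knockout-labelled pair, was left out of the blocked fit, with changes from 0.33 to 0.55 and adjusted p from 0.0294 to 0.193 over the 6 pairs left out in turn. In knockout-labelled cells Arsb was 9.89, 9.34 and 9.72 in controls and 10.46, 9.62 and 10.09 after ischemia. All 3 of these pairs had the ischemia array higher as well, and the change of 0.41 ± 0.11 had a blocked limma adjusted p of 0.0882. Arsb was the member with a second probe set, and that probe set gave changes of 0.43 and 0.44 in the respective genotypes.

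Among the 13 proteases, 12 were above 0 in wild-type cells (median 0.11) and 9 in knockout-labelled cells (median 0.08), and none passed the limma test in either. After a further quantile normalization 11 and 4 were above 0. Ctso, a cysteine cathepsin of broad tissue distribution, had the largest fitted change of the class in both genotypes. It read 8.34, 9.04 and 8.66 in wild-type controls and 9.02, 9.08 and 9.14 after ischemia. The ischemia arrays were close together and the controls were spread widely, with control array 2 reaching above ischemia array 1. The change was 0.40 ± 0.18 at a limma adjusted p of 0.338. In knockout-labelled cells Ctso read 8.80, 8.44 and 8.14 in controls and 8.91, 9.06 and 8.79 after ischemia. Only the first control array reached into the ischemia range. Here the change was 0.45 ± 0.18, at an adjusted p of 0.56 without the block and 0.109 with it. Leaving knockout-labelled pair 1 out of the blocked fit gave 0.63 at an adjusted p of 0.0327. In that fit 2 of 42 members were called, among 753 of 15273 genes. Without knockout-labelled pair 2 or 3 only 4 and 2 genes were called, and no member.

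Ctsc is the dipeptidyl peptidase that activates granule serine proteases. In wild-type cells it read 11.21, 11.48 and 11.23 in controls and 11.67, 11.92 and 11.43 after ischemia. Every pair had the ischemia array higher, by 0.46, 0.44 and 0.20, although ischemia array 3 lay below control array 2. The change was 0.36 ± 0.13, with a limma adjusted p of 0.285 without the block and 0.0646 with it, and 0.0487 when knockout-labelled pair 1 was left out of the blocked fit. Without that pair 714 genes were called in wild-type ischemia, and leaving out any other pair did not call Ctsc. Knockout-labelled arrays read 10.99, 10.96 and 10.85 in controls and 10.96, 11.26 and 11.14 after ischemia, a change of 0.19 ± 0.13. The first of these pairs differed by -0.03 and the others by 0.30.

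Ctsh, an aminopeptidase of the same family, had the largest difference of ischemia effects between genotypes among the proteases. Wild-type arrays read 11.01, 11.17 and 11.06 in controls and 11.57, 11.35 and 11.40 after ischemia, with no overlap. Knockout-labelled arrays read 11.06, 11.08 and 11.34 in controls and 10.99, 11.19 and 11.38 after ischemia, with full overlap. The changes were 0.36 ± 0.12 and 0.03 ± 0.12, and their difference of -0.33 ± 0.17 (95% interval -0.70 to 0.03) had a limma adjusted p of 1 without the block and 0.554 with it, so a difference between genotypes was not detectable with these arrays.

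Ctsf, a cathepsin that can cleave the invariant chain, had the lowest fitted change of the proteases. Knockout-labelled controls read 8.61, 8.75 and 8.81 and ischemia arrays 8.42, 8.26 and 8.51. These groups did not overlap, and the change was -0.33 ± 0.16 (limma adjusted p 0.571). Wild-type arrays read 8.37, 8.64 and 8.06 in controls and 8.02, 8.41 and 8.53 after ischemia, with pairs in both directions for a change of -0.04. Ctsk, whose arrays are given with the genotypes, changed by 0.20 ± 0.21 in wild-type and -0.10 ± 0.21 in knockout-labelled cells, a difference of -0.29 ± 0.29. The abundant endopeptidases Ctsb, Ctsd, Ctsl and Ctss, with Ctsa, Ctsz, Lgmn and Tpp1, had changes from 0.04 (Lgmn) to 0.22 (Ctsz) in wild-type cells. In knockout-labelled cells the same genes ranged from -0.06 (Tpp1) to 0.12 (Ctsl).

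**Figure D2:**
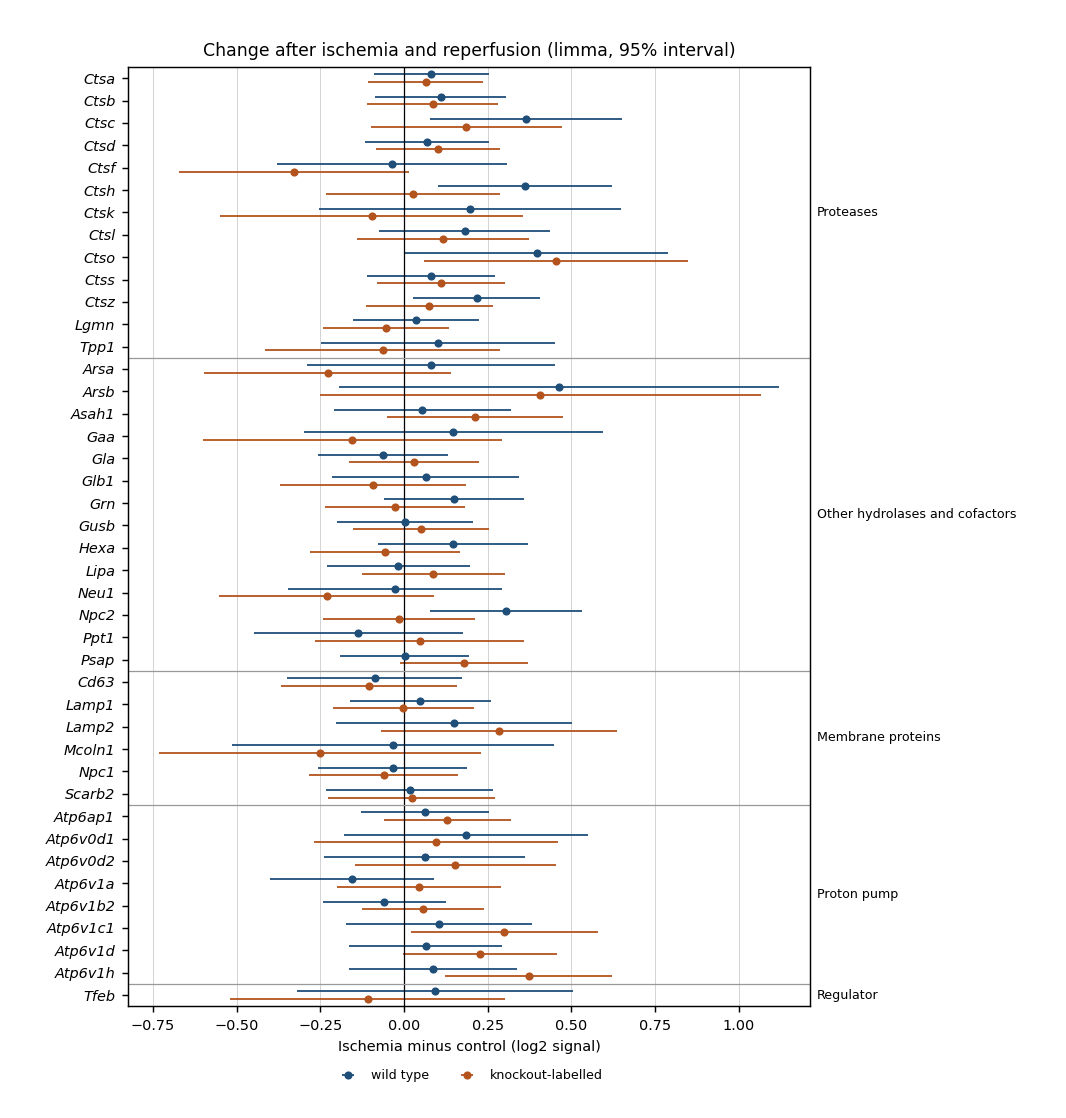
Log2 change after ischemia and reperfusion for each measured lysosomal gene, as ischemia minus control in the limma fit without a block, with 95% intervals, in wild-type (blue) and knockout-labelled (orange) cells. Most intervals span 0 and all but those of Arsb lie inside a 2-fold change. The 8 pump genes are to the right of 0 in knockout-labelled cells, though after a further quantile normalization only 6 are.

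The 14 other hydrolases and cofactors were divided, with 10 above 0 in wild-type cells (median 0.06) and 7 in knockout-labelled cells (median 0.01), or 6 and 4 after a further quantile normalization. Npc2, the soluble protein that hands cholesterol to Npc1, had the largest wild-type change after Arsb. Its signal was 11.78, 11.99 and 11.70 in wild-type controls and 12.07, 12.27 and 12.05 after ischemia. No ischemia array lay in the control range, and the pair differences were 0.28, 0.28 and 0.35. In knockout-labelled cells it was 11.81, 11.76 and 11.88 in controls and 11.76, 11.74 and 11.91 after ischemia, and the groups overlapped. The wild-type change of 0.31 ± 0.10 had a limma adjusted p of 0.275 without the block and 0.0731 with it. The difference between genotypes was -0.32 ± 0.15 (95% interval -0.64 to 0.00), with limma adjusted p of 1 without the block and 0.537 with it.

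Grn encodes progranulin, a lysosomal cofactor secreted by microglia. It read 12.86, 12.99 and 12.93 in wild-type controls and 13.01, 13.16 and 13.07 after ischemia, without overlap. Knockout-labelled controls read 12.82, 12.79 and 12.98 and ischemia arrays 12.79, 12.73 and 12.98. The ischemia array was higher in all wild-type pairs, by 0.14 to 0.17, and lower in all knockout-labelled pairs, by no more than 0.05. The difference of -0.18 ± 0.14 was not called (limma adjusted p 1 without the block, 0.719 with it).

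Arsa and Neu1, a sulfatide sulfatase and a sialidase, had the ischemia array lower in all 3 knockout-labelled pairs. Arsa read 8.37, 8.26 and 8.83 in those controls and 8.21, 8.21 and 8.35 after ischemia, for a change of -0.23 ± 0.17. Its wild-type arrays read 8.64, 8.19 and 8.49 in controls and 8.61, 8.23 and 8.71 after ischemia, for a change of 0.08. The Arsa groups overlapped in both genotypes, and the difference of -0.31 ± 0.24 was not called. Without the third knockout-labelled control array the Arsa change there was -0.05 and the difference -0.14. For Neu1, knockout-labelled controls read 9.01, 9.01 and 9.48 and ischemia arrays 8.93, 8.80 and 9.08. The third control array was the high one, and the change of -0.23 ± 0.15 (limma adjusted p 0.62) was -0.07 without it. Wild-type Neu1 read 9.32, 8.91 and 8.93 in controls and 9.10, 8.95 and 9.04 after ischemia, with no consistent direction. The enzymes of Hexa, Gaa, Glb1, Gla, Gusb, Asah1 and Lipa digest gangliosides, glycogen, glycosaminoglycans, ceramide, lipid esters and sphingolipids. These genes, with Ppt1 and Psap, had changes between -0.14 (Ppt1) and 0.15 (Hexa and Gaa) in wild-type cells. In knockout-labelled cells they lay between -0.15 (Gaa) and 0.21 (Asah1).

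Of the 6 membrane proteins, 3 were above 0 in wild-type cells (median -0.01) and 2 in knockout-labelled cells (median -0.03), or 2 and 1 after a further quantile normalization. Lamp2, a membrane glycoprotein needed for fusion with autophagosomes and, as a splice form, for chaperone-mediated autophagy, had the largest values. It read 11.51, 12.01 and 11.69 in wild-type controls and 11.89, 12.06 and 11.70 after ischemia. In knockout-labelled cells it read 11.80, 11.50 and 11.32 in controls and 11.96, 11.92 and 11.60 after ischemia. The ischemia array was higher in all 6 pairs, by 0.02 to 0.41, yet the groups overlapped in both genotypes. The changes were 0.15 ± 0.16 and 0.28 ± 0.16, with limma adjusted p of 0.671 and 0.595 without the block and 0.381 and 0.169 with it. Leaving out 1 array moved them to values between 0.04 (without control array 1) and 0.29 (without control array 2) in wild-type cells, and between 0.17 (without control array 3) and 0.41 (without control array 1) in knockout-labelled cells.

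Mcoln1, the calcium channel, read 9.93, 10.18 and 10.56 in knockout-labelled controls and 9.78, 9.90 and 10.23 after ischemia. Each pair was lower, by 0.15, 0.27 and 0.33, within a spread between arrays that was larger than those steps. The change of -0.25 ± 0.22 was -0.08 without the third control array. Wild-type Mcoln1 read 10.24, 9.77 and 10.22 in controls and 10.13, 9.59 and 10.42 after ischemia, a change of -0.03. Cd63, a tetraspanin of late endosomes, read 11.16, 10.87 and 11.09 in wild-type controls and 11.16, 10.90 and 10.80 after ischemia. The third pair differed by -0.29 and the others by 0.03 or less, for a change of -0.09 ± 0.12. In knockout-labelled cells it read 11.26, 11.18 and 11.37 in controls and 11.20, 11.02 and 11.28 after ischemia, a change of -0.10 ± 0.12. Lamp1, Scarb2 (the carrier of glucocerebrosidase) and Npc1 (the cholesterol exporter) differed by no more than 0.06 in either genotype.

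In knockout-labelled cells all 8 measured pump genes had a fitted change above 0 (median 0.14, range 0.04 to 0.37), against 6 of 8 in wild-type cells (median 0.06). The 11 other pump genes tested leaned the other way, with 7 above 0 in knockout-labelled cells (median 0.09) and 10 in wild-type cells (median 0.12). After a further quantile normalization 6 and 2 of the 8 measured members were above 0. None passed the limma test in either genotype, and 49.8% of all genes, but 70.2% of the brightest 10%, were above 0 in knockout-labelled cells. Over all 42 members, 26 were above 0 there (15 when quantile normalized again, 27 when median centred), with a median of 0.05, against a median of -0.00 over all genes and 0.09 over the brightest 10%. No member was called, as was no gene (0% of those tested), and 3 had an unadjusted p under 0.05 (Ctso, Atp6v1c1 and Atp6v1h), with a background of 8.73%. The smallest adjusted p was 0.56. Atp6v0d2, Atp6v1d, Atp6v1h, Ctsb, Lipa and Psap were higher on each ischemia array than on any control, where 7.94% of genes were. Ctsf was lower on each, where 6.36% were.

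Atp6v1h, the V1 subunit that governs ATP hydrolysis in the assembled pump, gave the largest value of the class. Knockout-labelled controls read 9.90, 9.47 and 9.61 and ischemia arrays 10.11, 10.01 and 9.97. Each ischemia array lay above each control, with pair differences of 0.21, 0.54 and 0.36. The change was 0.37 ± 0.12, with a limma adjusted p of 0.56 without the block, 0.0876 with it and 0.045 when knockout-labelled pair 1 was left out of the blocked fit. Without that pair 753 genes were called, and leaving out any other pair did not call Atp6v1h. Wild-type arrays read 9.66, 9.80 and 9.92 in controls and 9.83, 9.89 and 9.92 after ischemia, a change of 0.09. The difference between genotypes, 0.29 ± 0.16, was not called (limma adjusted p 1 without the block, 0.604 with it).

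Atp6v1c1, the V1 subunit involved in joining V1 to V0, read 11.35, 11.13 and 10.81 in knockout-labelled controls and 11.44, 11.48 and 11.26 after ischemia. The ranges overlapped, and the pair differences were 0.09, 0.36 and 0.45. The change was 0.30 ± 0.13 (limma adjusted p 0.56) and 0.16 without the third control array. In wild-type cells it read 11.20, 11.34 and 11.31 in controls and 11.50, 11.32 and 11.35 after ischemia, with a change of 0.10. Atp6v1a, the catalytic subunit, read 12.19, 12.27 and 12.26 in wild-type controls and 12.09, 11.99 and 12.18 after ischemia. These groups did not overlap, and the change was -0.15 ± 0.11 (limma adjusted p 0.513). Knockout-labelled Atp6v1a read 12.32, 12.15 and 11.91 in controls and 12.23, 12.25 and 12.03 after ischemia, a change of 0.04. Atp6v0d1, which couples the sectors in most tissues, read 10.92, 10.77 and 10.77 in wild-type controls and 11.21, 10.62 and 11.19 after ischemia. Its ischemia arrays lay on both sides of the controls, for a change of 0.18 ± 0.17, which was 0.08 without ischemia array 1 and 0.38 without ischemia array 2. In knockout-labelled cells it read 10.77, 10.81 and 11.23 in controls and 10.92, 10.95 and 11.22 after ischemia, a change of 0.10 ± 0.17. Atp6v0d2, the form enriched in macrophages and osteoclasts, changed by 0.06 in wild-type and 0.15 in knockout-labelled cells. Atp6ap1, Atp6v1b2 and Atp6v1d changed by -0.06 to 0.06 in wild-type and by 0.06 to 0.23 in knockout-labelled cells.

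The Tfeb transcript kept no direction over the alternatives tried. It read 8.99, 8.73 and 8.94 in wild-type controls and 9.0, 8.72 and 9.22 after ischemia, a change of 0.09 ± 0.19. The first and second pairs were level, and the third differed by 0.28. In knockout-labelled cells it read 8.81, 9.12 and 9.59 in controls and 8.89, 8.99 and 9.31 after ischemia, a change of -0.11 ± 0.19. The third control array was the highest of the 12, and without it the knockout-labelled change was 0.10.

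**Figure D3:**
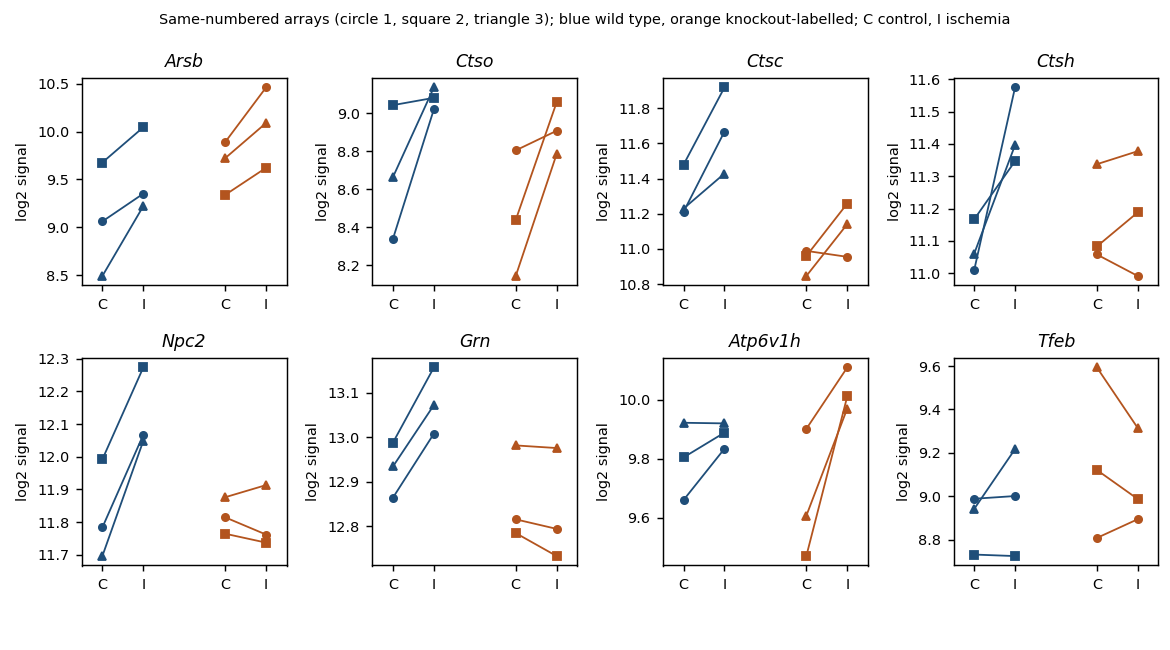
Log2 signal of 8 lysosomal genes on control (C) and ischemia (I) arrays, with lines joining arrays of the same number (circle 1, square 2, triangle 3), in wild-type (blue) and knockout-labelled (orange) cells; each panel has its own axis. All lines slope up for Arsb and Ctso, and for Npc2 and Ctsh the wild-type lines slope up while the knockout-labelled lines do not share a direction.

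Read pair by pair, 15 of the 42 members were higher in all 3 wild-type pairs (background 25.8% of genes) and 2, Gla and Atp6v1a, were lower in all (background 22.9%). In knockout-labelled cells 15 were higher in all pairs (background 20.8%) and 10 lower in all (background 18.7%). The genes that were higher in all 6 pairs were Ctsb, Ctsl, Ctso, Ctsz, Arsb and Lamp2. The share of all genes that were higher in all 6 was not counted, so this list has no background. When arrays were left out or the block, filter or scaling was changed, Ctsb and Ctsz took both signs in knockout-labelled cells. Their fitted changes there ran from -0.043 to 0.108 and from -0.063 to 0.124. Those of Ctsl, Ctso, Arsb and Lamp2 stayed above 0 in both genotypes. Lgmn and Grn were higher after ischemia in all wild-type pairs and lower in all knockout-labelled pairs, a pattern that 2.9% of all genes showed in either orientation. Under the same changes of fit, Lgmn in wild-type cells (-0.081 to 0.096) and Grn in knockout-labelled cells (-0.100 to 0.034) took both signs. Median changes over the members by pair were 0.12, 0.00 and 0.11 in wild-type and 0.03, 0.10 and 0.02 in knockout-labelled cells. The second wild-type pair, with 21 of 42 members above 0, was the flat one.

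Other features of the cultures moved alongside. The mean signal of 7 interferon-response genes was 6.06, 8.92 and 6.74 on wild-type control arrays and 8.49, 10.54 and 7.91 on wild-type ischemia arrays, and lay between 5.43 and 6.09 on all knockout-labelled arrays. The mean over 5 fibroblast and mural markers was 6.53 to 7.10 on wild-type control and 6.30 to 6.48 on wild-type ischemia arrays. For knockout-labelled cells this mean was 6.58 to 6.75 and 6.35 to 6.60, and Dcn, a member of that list, was below the dim filter. In the blocked limma fit all 7 interferon-response genes rose in wild-type cells (background 3.73% of genes called) and none was called in knockout-labelled cells (background 0.648%). Of the other cell type markers tested there, those called were Flt1 and Pf4 (higher in both genotypes), Cldn5 (lower in wild-type cells) and Dcstamp (higher in knockout-labelled cells), while 0 of 4 fibroblast and mural, 3 astrocyte, 3 neuron and 4 oligodendrocyte markers were called. Of 10 microglial markers, Aif1 rose in wild-type cells and C1qa and Cx3cr1 fell in knockout-labelled cells in that fit. The part of these genes in the lysosomal values was not tested.

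Between genotypes, Ctsk and Ctsc had the largest differences of the 42 after ischemia, and Ctsk and Arsb in control cells, and none of them passed the threshold in the limma fit. In control cells 0 of 42 were called, with a background of 0.0589% of genes, and after ischemia 0 of 42, with a background of 0.714% (109 genes). At an unadjusted p of 0.05, 4 passed in control cells (Ctsc, Ctsf, Ctsk and Ctss, background 7.14%) and 5 after ischemia (Ctsc, Ctsk, Ctss, Grn and Npc2, background 8.35%). The median difference, knockout-labelled minus wild type, was -0.01 in control cells with 18 of 42 above 0 (50.8% of genes) and -0.02 after ischemia with 16 of 42 above 0 (52.7% of genes), or 11 of 42 when median centred. These comparisons share no arrays with each other, but each shares arrays with the ischemia comparisons above. They are not independent, since same-numbered control and ischemia arrays of a genotype deviated together and the fit had one spread for all groups. A difference seen in both conditions is therefore not a replication.

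Ctsk, the collagen-cleaving cathepsin best known from osteoclasts, read 7.42, 7.03 and 7.46 in wild-type controls and 7.15, 6.46 and 6.55 in knockout-labelled controls. After ischemia it read 7.74, 7.09 and 7.67 in wild-type cells and 6.57, 6.82 and 6.48 in knockout-labelled cells. The control groups overlapped by a single array and the ischemia groups did not overlap. The differences were -0.58 ± 0.21 in control cells (limma adjusted p 0.633) and -0.88 ± 0.21 after ischemia (limma adjusted p 0.0997). The latter passed without wild-type ischemia array 2, at -1.08 and an adjusted p of 0.0323. The mean over 6 osteoclast-like markers was 6.86 to 7.07 on wild-type ischemia arrays and 6.81 to 7.31 on knockout-labelled ischemia arrays. Its members differed in opposite directions, by -1.01 for Mmp9 and 1.28 for Dcstamp after ischemia, with overlapping groups, and neither was called by limma. The part of these markers in the Ctsk values was not tested.

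Ctsc, with the values above, was lower on every knockout-labelled array than on any wild-type array of the same condition. The differences were -0.37 ± 0.13 in control cells (limma adjusted p 0.628) and -0.55 ± 0.13 after ischemia (limma adjusted p 0.102). The latter passed without wild-type ischemia array 3, at -0.67 and an adjusted p of 0.0478. Ctss, the cathepsin of antigen-presenting cells, was also lower without overlap in both conditions. It read 13.43, 13.56 and 13.46 in wild-type and 13.33, 13.19 and 13.23 in knockout-labelled controls. After ischemia the wild-type arrays read 13.61, 13.55 and 13.53 and the knockout-labelled arrays 13.44, 13.40 and 13.25. Its differences were -0.23 ± 0.09 and -0.20 ± 0.09, neither of them called (limma adjusted p 0.658 and 0.575).

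In control cells, knockout-labelled arrays were all lower than wild-type arrays for Atp6v1b2, Ctsc, Ctss, Lipa and Psap (background 4.52%) and all higher for Cd63 and Npc1 (background 5.37%). After ischemia they were all lower for Ctsc, Ctsk, Ctss, Ctsz, Gla, Grn, Npc2 and Scarb2 (background 8.07%) and all higher for Atp6v1h and Gusb (background 8.38%). Arsb had the largest positive differences, 0.57 ± 0.30 and 0.52 ± 0.30, with overlapping groups and limma adjusted p of 0.705 and 0.717. The 95% interval lay inside a 1.5-fold difference for 35 of 42 members in control cells and 37 after ischemia. Inside a 2-fold difference it lay for 40 in either condition, the exceptions being Arsb and Ctsk.

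**Figure D4:**
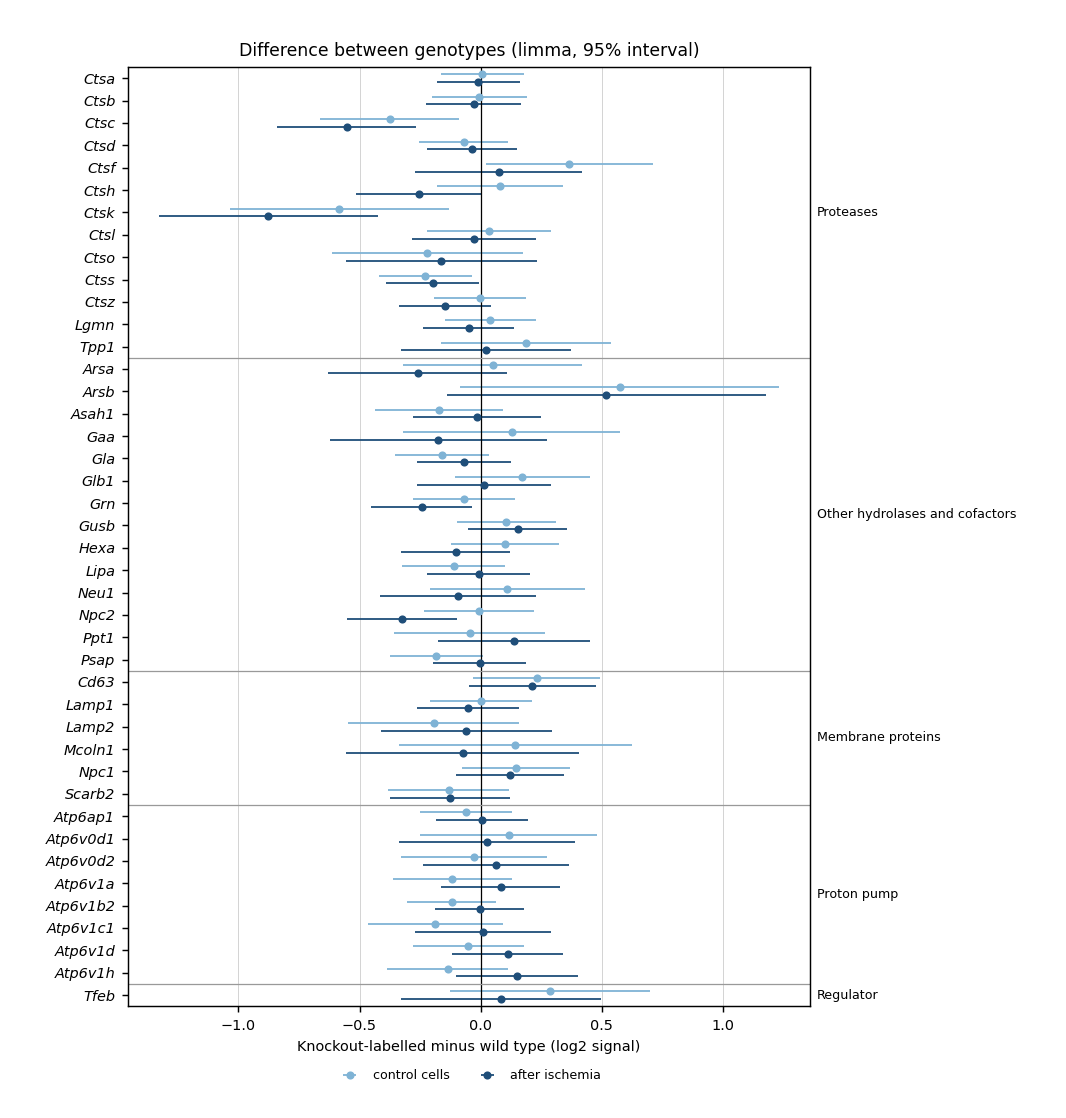
Log2 difference between genotypes for each measured lysosomal gene, as knockout-labelled minus wild type in the limma fit, with 95% intervals, in control cells (light) and after ischemia (dark). Ctsk at -0.88 and Ctsc at -0.55 after ischemia lie farthest to the left, and 37 of the 42 intervals after ischemia lie inside a 1.5-fold difference.

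The difference between the genotypes' ischemia effects, knockout-labelled minus wild type, had a median of -0.03 over the members, with 18 of 42 above 0 (51.6% of genes). None of the 42 was called and none had an unadjusted p under 0.05, where 0% and 2.9% of genes did. This comparison is the least precise: its 95% interval lay inside a 1.5-fold difference for 25 of 42 members without the block and 35 with it, and inside a 2-fold difference for all 42.

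Genes of the same compartment outside the set gave a few calls. Of 34 other lysosomal genes tested, 2 rose in wild-type ischemia in the blocked limma fit (background 3.73% of genes) and none without the block (background 0.0131%). In knockout-labelled ischemia 0 were called (background 0.648% with the block and 0% without). After ischemia, 1 was lower in knockout-labelled than in wild-type cells (background 0.714%). Acp2, lysosomal acid phosphatase, read 10.48, 10.73 and 10.53 in wild-type controls and 10.88, 11.30 and 10.93 after ischemia. Knockout-labelled arrays read 10.24, 10.33 and 10.32 in controls and 10.36, 10.47 and 10.39 after ischemia. Wild-type Acp2 values after ischemia lay above all others. The rise was 0.46 ± 0.09 with the block (limma adjusted p 0.0176), and after ischemia the genotypes differed by -0.63 ± 0.12 (limma adjusted p 0.0271). That call was lost when only the groups compared were fitted, without wild-type ischemia array 2, without knockout-labelled control array 2 or without any knockout-labelled ischemia array, with adjusted p up to 0.16. Aga, which cleaves asparagine from glycoproteins, read 8.86, 9.36 and 8.86 in wild-type controls and 9.56, 9.75 and 9.05 after ischemia. The groups overlapped, and it rose by 0.42 ± 0.11 in wild-type cells with the block (limma adjusted p 0.05 by rounding, just under the threshold).

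Of 11 other pump genes tested, Atp6v0a1, an isoform of the V0 subunit that carries protons, was called between genotypes after ischemia (background 0.714% of genes). It read 12.22, 12.07 and 12.22 on wild-type and 12.64, 12.61 and 12.58 on knockout-labelled ischemia arrays. The groups were 0.44 ± 0.09 apart (limma adjusted p 0.0454), and the call was lost without any 1 wild-type array, knockout-labelled control array 2 or any 1 knockout-labelled ischemia array, with adjusted p up to 0.238. It was also lost when only the groups compared were fitted, with no dim filter, under quantile normalization and under median centring. Among the cathepsin inhibitors 3 were tested, and Cst7, which encodes cystatin F, rose in both genotypes in the blocked limma fit and in neither without it. The backgrounds of the blocked fit were 3.73% of genes in wild-type and 0.648% in knockout-labelled cells. Cst7 read 6.50, 8.51 and 6.71 in wild-type controls and 7.32, 9.39 and 7.37 after ischemia, with pair changes of 0.82, 0.88 and 0.65. In knockout-labelled cells it read 7.92, 7.27 and 7.57 in controls and 8.46, 7.81 and 7.95 after ischemia, with pair changes of 0.53, 0.55 and 0.37. The wild-type pairs differed far more in level than in change. The rises were 0.78 ± 0.10 and 0.48 ± 0.10, with blocked adjusted p of 0.000601 and 0.037. None of the 3 Tfeb relatives and none of the 13 autophagy genes was called in any comparison, with or without the block.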

How the data were processed

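Primary mouse microglia were profiled on 12 Affymetrix Mouse Gene 1.0 ST arrays, 3 in each of 4 groups. The authors deposited 1 log2 signal for each probe set and array, made with RMA in Affymetrix Expression Console 1.1, per the submitters' processing notes. RMA corrects background, normalizes quantiles over arrays and summarises probes, and small changes shared by many bright genes depend on that scaling. Of 35557 probe sets, 21789 carried 1 gene symbol, 1621 several and 12147 none in the platform table, and 21698 matched the GRCm38.p6 gene table. The brightest probe set stood for a gene (999 genes had several), and genes whose mean fell under the 30th percentile of probe sets were dropped.

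Groups came from array titles. Means of the 4 groups were fitted with limma 3.58.1 (lmFit, eBayes) in R 4.3.3, with no block, and p-values were adjusted by Benjamini-Hochberg over all 15273 genes; a gene was called at an adjusted p under 0.05. A second fit had the replicate number within genotype as a block. The pairing comes from the data: deviations of same-numbered arrays correlated at 0.48, 0.73 and 0.48 in wild-type and 0.36, 0.32 and 0.49 in knockout-labelled cells. Differently numbered control and ischemia arrays ran from -0.62 to 0.40 in wild-type and from -0.44 to 0.22 in knockout-labelled cells. Between genotypes same-numbered arrays had no common sign (-0.33 to 0.33), though the highest value reached that of the weakest knockout-labelled pair. The ± values beside changes are standard errors. Precision is limited by having 3 arrays a group. The fits were tested on simulated data with planted wild-type ischemia changes, each larger than any change fitted to a member after ischemia. That test does not show how well changes of the size seen here are found.

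The members and lists were chosen with earlier results of these data known. Array values are given for members called in either fit and for the 2 members of each role with the largest change in each ischemia comparison or difference; genes of the other lists are given where called. Grn, Ctss and the genes of the genotype comparison were added after their values were seen. Alternatives tried concern which arrays entered the fit, the block, the dim filter, quantile normalization, median centring, the mean of a gene's probe sets and leaving out each array; leaving pairs out of the blocked fit was chosen after seeing the data.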

Additional observations from a re-analysis of the deposited data

Results flagged for a closer look

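Lgmn, the asparaginyl endopeptidase that activates several cathepsins, was higher after ischemia in all 3 wild-type pairs and lower in all 3 knockout-labelled pairs. The steps were small, 0.02 to 0.07 upward and 0.02 to 0.09 downward, and the difference between the genotypes' effects was -0.0891 (limma adjusted p 1 without the block, 0.867 with it). Grn showed the same opposite directions with a difference of -0.176 (limma adjusted p 1 without the block, 0.719 with it). The limma test of the difference called neither gene, and 2.9% of all genes tested had pairs in opposite directions. The opposite directions hold for the signal as deposited. When arrays were left out or the block, filter or scaling was changed, the fitted Lgmn change in wild-type cells ran from -0.081 to 0.096. The Grn change in knockout-labelled cells ran from -0.100 to 0.034, so both took either sign. The difference between genotypes stayed below 0 for both genes.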

How the results depend on the processing

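The precision is set by 3 arrays a group, whose independence the labels do not state. The member with the lowest mean signal (Ctsk, 7.04) was above the dim filter of 5.36, so no measured member was dropped as dim. Its signal was below the median of 7.47 over the genes tested. Whether a low signal affected the values of the dimmer members was not tested. The wild-type ischemia labels conflict, and Tlr4 signal did not separate the genotypes.

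With the replicate block, members called were 1 in wild-type ischemia (0 without it), and genes called were 570 in wild-type ischemia, 99 in knockout-labelled ischemia and 47 for the difference of effects, against 2, 0 and 0 without it; the block changed no other call among the members. A block of 3 levels over all arrays, which the data did not bear out between genotypes, gave 2 members (Ctsc at an adjusted p of 0.0257 and Ctsk at 0.0291) and 236 genes for the genotypes after ischemia, 31 genes for the genotypes in control cells and 1 in knockout-labelled ischemia. Fitting only the groups compared gave 1 gene in wild-type ischemia and 0 for the genotypes in control cells. Quantile normalization gave 1 gene in wild-type ischemia and member medians of 0.0011 in wild-type and -0.042 in knockout-labelled ischemia, with 21 and 15 of 42 above 0 and an all-gene median of -0.03 in both; the cause was not tested.

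Leaving out 1 array in turn gave 1 to 79 genes called in wild-type ischemia (79 without wild-type control 2), 0 in knockout-labelled ischemia, 0 to 23 for the genotypes in control cells, 25 to 158 for the genotypes after ischemia (25 without knockout-labelled ischemia 1) and 0 to 1 for the difference of effects. Members called were 0 to 1 for the genotypes after ischemia and 0 elsewhere. Member medians were 0.05 to 0.09, 0.03 to 0.09, -0.05 to 0.02, -0.06 to -0.02 and -0.06 to 0.01 in the same order. Leaving out 1 pair of the blocked fit gave 143 to 767 genes and 0 to 2 members in wild-type ischemia, 2 to 753 genes and 0 to 2 members in knockout-labelled ischemia (753 without knockout-labelled pair 1), and 20 to 49 genes for the difference. Over the alternatives planned, 19 of 42 members took both signs in wild-type ischemia, 20 in knockout-labelled ischemia, 16 for the genotypes in either condition and 17 for the difference. Among the 33 gene and comparison pairs named by the rule, 23 moved by over 1.5 times without 1 array, and the signs that reversed were those of Lamp2 for the difference without wild-type control 2 (-0.0030; 0.26 at most without 1 array), Tfeb without knockout-labelled control 3 (0.10 in knockout-labelled ischemia and 0.0067 for the difference; -0.29 and -0.39 at the other end), and Tfeb in wild-type ischemia under quantile normalization (-0.011) or without wild-type ischemia 3 (-0.024; 0.22 at most). The other values of these 33 under an alternative kept their sign, of which 629 kept their side of the threshold, 20 lost a call and 7 gained one.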
